A study of Saccharomyces cerevisiae with 12 samples.

Results

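EUC1 (YMR111C) was examined together with the genes that flank it on chromosome XIII of budding yeast, HFD1 (YMR110C) and MYO5 (YMR109W) on one side and MED11 (YMR112C) and FOL3 (YMR113W) on the other. The 5 genes were taken by their systematic names, and this choice was made with earlier results of these data known. All 5 were among the 5581 Saccharomyces cerevisiae genes with a probe set of their own on the Affymetrix GeneChip Yeast Genome 2.0 array. Transcript levels were measured on 12 arrays in 4 groups of 3. In experiment A, euc1∆ cells (strain MJK448), which lack EUC1, were compared with wild-type cells (strain Y0003). In experiment B, euc1-K231R cells (strain MJK612), whose Euc1 carries the exchange K231R (a lysine replaced by arginine), were compared with other wild-type arrays of strain Y0003. All cultures grew in rich medium with 2% glucose at 30 °C to mid-log phase. Each mutant is represented by 1 strain, so the mutation cannot be told apart from any other property of that strain. The study describes the K231R allele as marked with URA3, and the sources used here do not give the cassette that replaced EUC1 in the deletion. In its growth tests of genetic interactions the study used strains with an extra copy of MED11, and the labels of the arrays name no such copy.

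Euc1 is a DNA-binding protein with a coiled coil and a GCR1 domain, the fold by which the yeast factor Gcr1 binds DNA. It sits at a small set of chromosomal sites, the ub-hotspots, where ubiquitin accumulates and to which Euc1 brings Slx5/Slx8, a ubiquitin ligase that recognises SUMO-modified proteins. The lysine exchanged in K231R is, by the study's account, the main place where SUMO is attached to Euc1. The gene next to it, MED11, encodes an essential subunit of the head module of Mediator, the complex that links transcription factors to RNA polymerase II. HFD1 encodes a fatty aldehyde dehydrogenase that also serves the synthesis of coenzyme Q. FOL3 encodes dihydrofolate synthetase of the folate pathway, and MYO5 a class I myosin of cortical actin patches with the paralog MYO3. By the strand letters of their names, MED11, EUC1 and HFD1 are read in the same direction and follow each other in that order. FOL3 and MED11 are read away from each other, so that their starts face each other, and the ends of MYO5 and HFD1 face each other.

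The deposited values are log2 expression values. The median gene lay between 10.4 and 10.6 on the 12 arrays, and the correlation across genes between replicate arrays was 0.996 to 0.999. Within groups the SD of the median gene was 0.05 to 0.07. Probe sets for the fission yeast S. pombe, for which budding yeast makes no target, gave the background, with a median of 3.95 and a 95th percentile of 5.30. All 5 genes lay above that percentile on every array except EUC1 in euc1∆. In every group 5 of 5 markers of mating type a, 3 of 4 of mating type alpha and 6 of 6 of sporulating diploids had means above it, so passing this level does not tell these cell types apart. The group means ran from 11.14 to 13.79 for the a markers, from 3.83 to 9.42 for alpha and from 5.89 to 8.89 for sporulating diploids. None of the 15 passed the test in either mutant. No array value was shared between the experiments to the last digit, so they were taken as normalised separately, and levels were compared only within an experiment. Differences are given as mutant minus wild type on the log2 scale with the standard error (SE) from limma, each from 3 arrays against 3, and a gene was called at a Benjamini-Hochberg adjusted p under 0.05 over all 5581 genes.

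EUC1 served as the check of the labels. In wild type of experiment A its log2 level was 9.02, 9.15 and 9.14 in replicates 1 to 3, and in euc1∆ it was 3.72, 3.88 and 3.64. The euc1∆ arrays lay far below every wild-type array, and none of the 3 exceeded the 95th percentile of S. pombe probe sets. The means were 9.10 ± 0.07 and 3.75 ± 0.12 (SD, n = 3), a difference of -5.36 ± 0.07 (SE, limma, adjusted p = 2.26e-07). The euc1∆ mean was above 40.1% of the S. pombe values on the same arrays, whose median was 3.89, so EUC1 was at background there and the difference gives only a bound. Against a floor of 5.26, the mean of that percentile over the euc1∆ arrays, the EUC1 transcript was at least 14.3-fold lower than in wild type.

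In experiment B, where the mutant keeps the gene with its exchanged codon, the EUC1 transcript was lower in the mutant as well. Its log2 level was 9.18, 9.25 and 9.09 on the wild-type arrays and 8.19, 8.15 and 8.12 on the euc1-K231R arrays. The groups were separated by a gap of 0.89, and all 3 mutant arrays lay well above background. The means were 9.17 ± 0.08 and 8.15 ± 0.04 (SD, n = 3), a difference of -1.02 ± 0.05 (SE, limma, adjusted p = 0.000181). On the linear scale euc1-K231R cells held 49.4% of the wild-type EUC1 signal (95% interval 45.4 to 53.9%), the third lowest difference of all 5581 genes. This is a signal of RNA, and the study describes mildly raised Euc1 protein in cells with this exchange. Each array measures a whole culture, so less transcript in every cell and transcript lost from some of the cells cannot be told apart. URA3, the marker of the allele, rose from log2 levels of 8.57 to 8.73 on the wild-type arrays to levels of 11.4 to 11.5 on the euc1-K231R arrays, a difference of 2.79 ± 0.05 (SE, limma, adjusted p = 3.24e-07). In euc1∆ its difference was 0.01 (adjusted p = 0.934). The exchange and the marker are carried together, so their effects on EUC1 cannot be told apart, and the sources used here do not say where the EUC1 probes lie in the transcript.

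**Figure D1:**
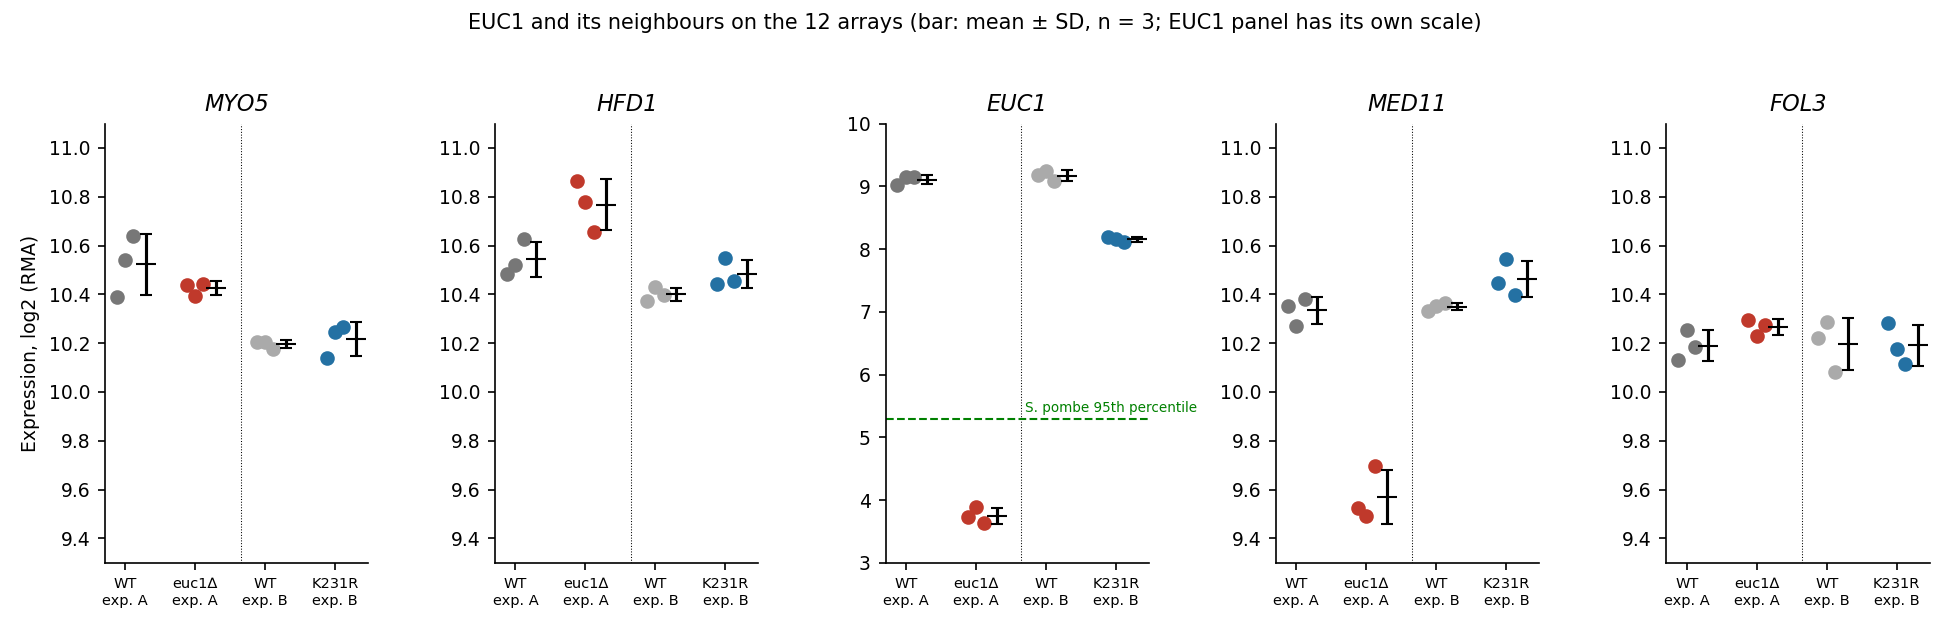
Log2 RMA expression (vertical axis) of MYO5, HFD1, EUC1, MED11 and FOL3 on each of the 12 arrays, as 1 point per array with the mean ± SD of each group (n = 3). The EUC1 panel has its own scale and a dashed line at the S. pombe 95th percentile (5.30). EUC1 lies at 3.64 to 3.88 in euc1∆ and at 8.12 to 8.19 in euc1-K231R, and MED11 is lower in euc1∆ than in wild type and not in euc1-K231R.

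The comparison of the neighbours asks whether the alleles of EUC1 go with a change of the genes beside it. Of the 5 genes, 2 were called in euc1∆, EUC1 and MED11, both lower, while 0.125% of all genes were called in that comparison (0.0538% higher, 0.0717% lower). The deletion fixes the fall of EUC1 in advance, so MED11 was the only neighbour called there. In euc1-K231R 1 of the 5 was called, EUC1, while 0.896% of all genes were called (0.179% higher, 0.717% lower). The mutant arrays did not overlap the wild-type arrays for EUC1, MED11 and HFD1 in either mutant, 3 of 5 genes each time. For EUC1 in euc1∆ the deletion fixes this as well. Without overlap were 18.1% of all genes in euc1∆ (9.84% higher, 8.24% lower) and 25.8% in euc1-K231R (14.0% higher, 11.8% lower).

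MED11, directly before EUC1 in the reading direction, fell in euc1∆. Its log2 level was 10.35, 10.27 and 10.38 on the wild-type arrays and 9.52, 9.49 and 9.70 on the euc1∆ arrays. Every euc1∆ array lay below every wild-type array, with a gap of 0.57, larger than the SD of either group. The means were 10.33 ± 0.06 and 9.57 ± 0.11 (SD, n = 3), a difference of -0.76 ± 0.06 (SE, limma, adjusted p = 0.0147). The euc1∆ cells thus held 58.9% of the wild-type MED11 signal (95% interval 53.1 to 65.3%). Of 5581 genes, it had the third lowest difference.

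In euc1-K231R the MED11 transcript was not lower. Its log2 level was 10.33, 10.35 and 10.36 in wild type and 10.45, 10.54 and 10.40 in the mutant. All 3 mutant arrays lay above the wild-type arrays, by a gap of only 0.03. The means were 10.35 ± 0.02 and 10.46 ± 0.07 (SD, n = 3), and the difference of 0.11 ± 0.05 (SE) did not pass the test (limma, adjusted p = 0.259). Its 95% interval, -0.0005 to 0.23, leaves room for a rise to 117% of the wild-type signal but not for a fall of the size seen in euc1∆.

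HFD1, directly after EUC1 in the reading direction, passed the test in neither mutant. In experiment A its log2 level was 10.48, 10.52 and 10.62 on the wild-type arrays and 10.86, 10.78 and 10.66 on the euc1∆ arrays. The euc1∆ arrays were all above the wild-type arrays, but the gap between the groups was 0.03, smaller than the SD of either group. The difference was 0.22 ± 0.06 (SE), with an interval of 0.07 to 0.38 and an adjusted p of 0.269 (limma). In experiment B the level was 10.37, 10.43 and 10.40 on the wild-type arrays and 10.44, 10.55 and 10.45 on the euc1-K231R arrays. The groups again did not overlap, by a gap of 0.01, and the difference of 0.08 ± 0.05 (SE) had an adjusted p of 0.357 (limma).

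FOL3 and MYO5 had overlapping groups in both experiments. The log2 level of FOL3 was 10.13, 10.26 and 10.18 on the wild-type arrays and 10.29, 10.23 and 10.27 on the euc1∆ arrays, and in experiment B it was 10.22, 10.29 and 10.08 in wild type and 10.28, 10.18 and 10.11 in the mutant. The differences were 0.08 ± 0.04 (SE, limma, adjusted p = 0.509) and -0.01 ± 0.07 (SE, adjusted p = 0.972). Their 95% intervals, -0.03 to 0.18 and -0.16 to 0.15, hold no change as large as that of MED11 in euc1∆. The level of MYO5 was 10.39, 10.54 and 10.64 on the wild-type arrays and 10.44, 10.39 and 10.44 on the euc1∆ arrays, and in experiment B it was 10.21, 10.21 and 10.18 in wild type and 10.14, 10.25 and 10.27 in the mutant. The differences were -0.10 ± 0.06 (SE, limma, adjusted p = 0.568) and 0.02 ± 0.05 (SE, adjusted p = 0.819), with intervals of -0.25 to 0.06 and -0.09 to 0.13. MYO5 varied more between the wild-type arrays of experiment A (SD 0.13) than between the euc1∆ arrays (SD 0.03).

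**Figure D2:**
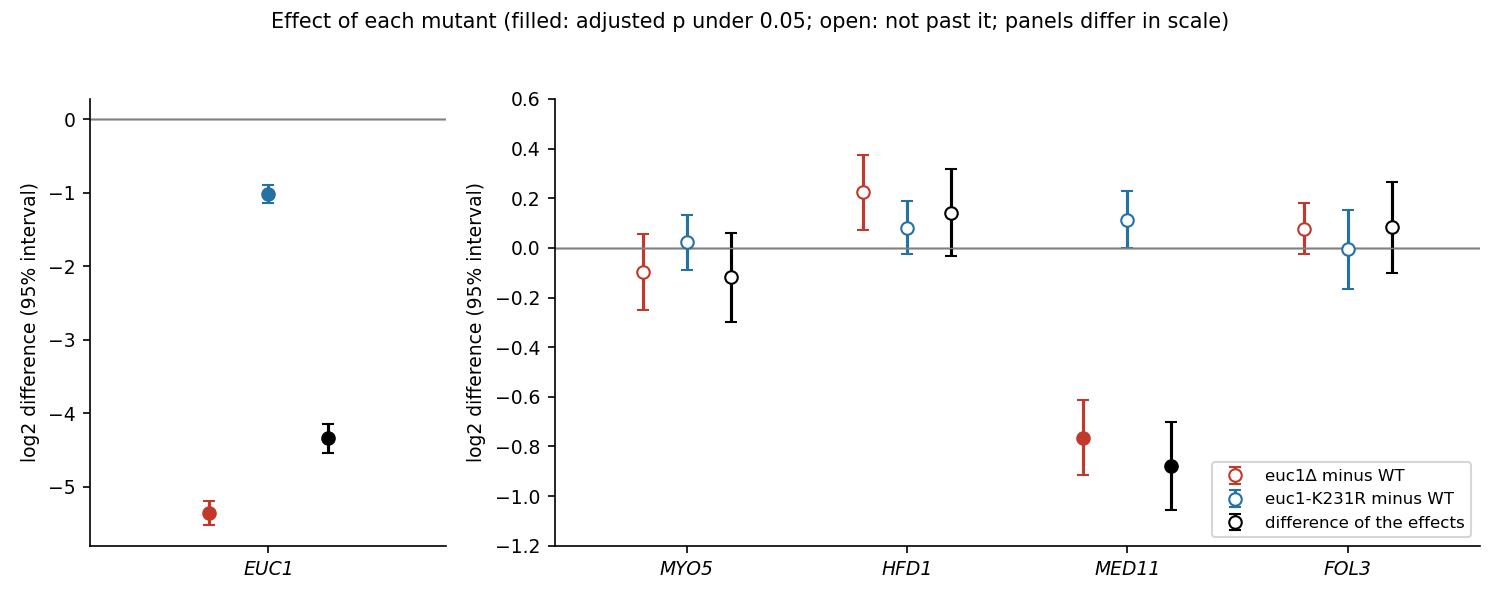
Log2 difference (vertical axis, 95% interval from limma) for each gene in euc1∆ against wild type, in euc1-K231R against wild type, and between these 2 effects, with EUC1 in a panel of its own scale. Filled points passed an adjusted p of 0.05 and open points did not. For the 4 neighbours the only filled points are those of MED11 in euc1∆ (-0.76) and for the difference of the effects (-0.88).

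Whether the mutants differ in their effect was tested in 1 limma fit of all 12 arrays, in which the effect of euc1-K231R was subtracted from that of euc1∆. This test called 1.25% of all genes (0.77% higher, 0.484% lower) and 2 of the 5, EUC1 and MED11. For MED11 the effects differed by -0.88 ± 0.08 (SE, 95% interval -1.06 to -0.70, adjusted p = 0.000184). For EUC1 they differed by -4.34 ± 0.09 (SE), which the deletion of the gene in 1 of the mutants fixes in advance and background limits on the euc1∆ side. The other 3 genes did not pass, with 0.14 (95% interval -0.03 to 0.32) for HFD1, 0.08 (-0.10 to 0.27) for FOL3 and -0.12 (-0.30 to 0.06) for MYO5. MED11 was therefore lower in euc1∆ relative to its wild type than in euc1-K231R relative to its own. Each mutant was measured in only 1 of the experiments. A difference between the alleles therefore cannot be told apart from a difference between the experiments or strains.

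The call of MED11 in euc1∆ depended on which arrays were fitted, while the size of the difference moved little. Leaving out 1 of the 6 arrays moved the difference between -0.83 and -0.72. The adjusted p rose above 0.05 without wild-type replicate 1 (0.0983), 2 (0.0848) or 3 (0.16) and without euc1∆ replicate 1 (0.0658) or 2 (0.103). Only without euc1∆ replicate 3, which had the highest MED11 level of its group, did the call hold in a fit of 5 arrays (limma, adjusted p = 0.00503). With all 12 arrays sharing 1 estimate of the spread the adjusted p was 8.21e-05. The difference between the mutants' effects on MED11 was called in each of the 18 alternative fits, with an adjusted p of at most 0.00273 and values of -0.94 to -0.84. EUC1 was called in all 13 alternative fits of each mutant, and HFD1, FOL3 and MYO5 in none.

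**Figure D3:**
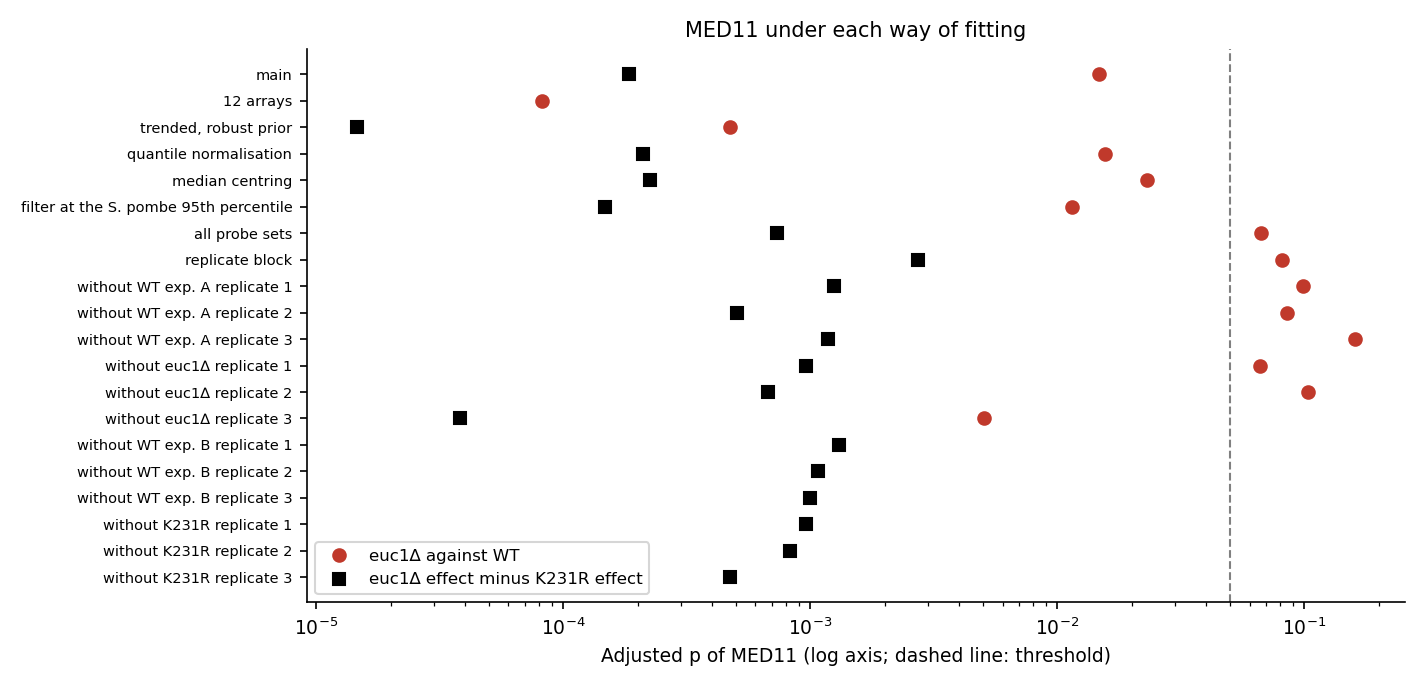
Adjusted p of MED11 (horizontal log axis, dashed line at 0.05) under each way of fitting (vertical axis), for euc1∆ against wild type (circles) and for euc1∆ effect minus K231R effect (squares). The squares all lie at or below 0.00273, while circles pass the line for all probe sets, the replicate block and 5 of the 6 fits without 1 array, where they reach 0.16.

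Looking further along the chromosome, the 10 measured genes on each side of EUC1 were listed in the order of the RefSeq gene table (assembly R64). Among these 20 genes MED11 was the only one called in euc1∆. An unadjusted p under 0.05 was found for 8 of the 20, a larger share than the 12.4% (690) of all genes. Whether this share exceeds that of other stretches was not tested. The differences of the 20 ran from -0.76 for MED11 to 0.26 for ADE17 (adjusted p = 0.138), a gene of purine synthesis 9 places beyond EUC1. The median was 0.01 over the 20 genes and 0.00 over all genes, and the median size of a difference was 0.10 against 0.05. Outside the 4 flanking genes, 0 of 16 were called by limma and 6 had an unadjusted p under 0.05, again a larger share than over all genes. The lowest of the 16 was SHH3 at -0.34 (adjusted p = 0.418), whose euc1∆ and wild-type arrays overlapped. Its means, 5.71 in wild type and 5.36 in euc1∆, were close to background.

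In euc1-K231R 0 of the 20 genes were called by limma and 4 had an unadjusted p under 0.05, against 1080 (19.4%) of all genes. MED11, at 0.11, was the highest of the 20. The lowest were SPG4, a gene needed for survival in stationary phase, at -0.81 ± 0.15 (SE, adjusted p = 0.0657), and SPC24, a kinetochore gene, at -0.46 ± 0.24 (SE, adjusted p = 0.33). SPG4 lies 4 places from EUC1, beyond HFD1 and MYO5, and had a wild-type mean of 6.82 and a mutant mean of 6.01 without overlap of the arrays, while its difference in euc1∆ was 0.03. Without wild-type replicate 3 the count of calls became 1 (SPG4), and without euc1-K231R replicate 3 it was also 1 (SPC24). SPC24, with a wild-type mean of 6.02, was close to background, and so was SPG4 in the mutant. The effects of the mutants differed past the threshold for 1 of the 20 genes, MED11, with 6 at an unadjusted p under 0.05, against 16.8% of all genes.

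**Figure D4:**
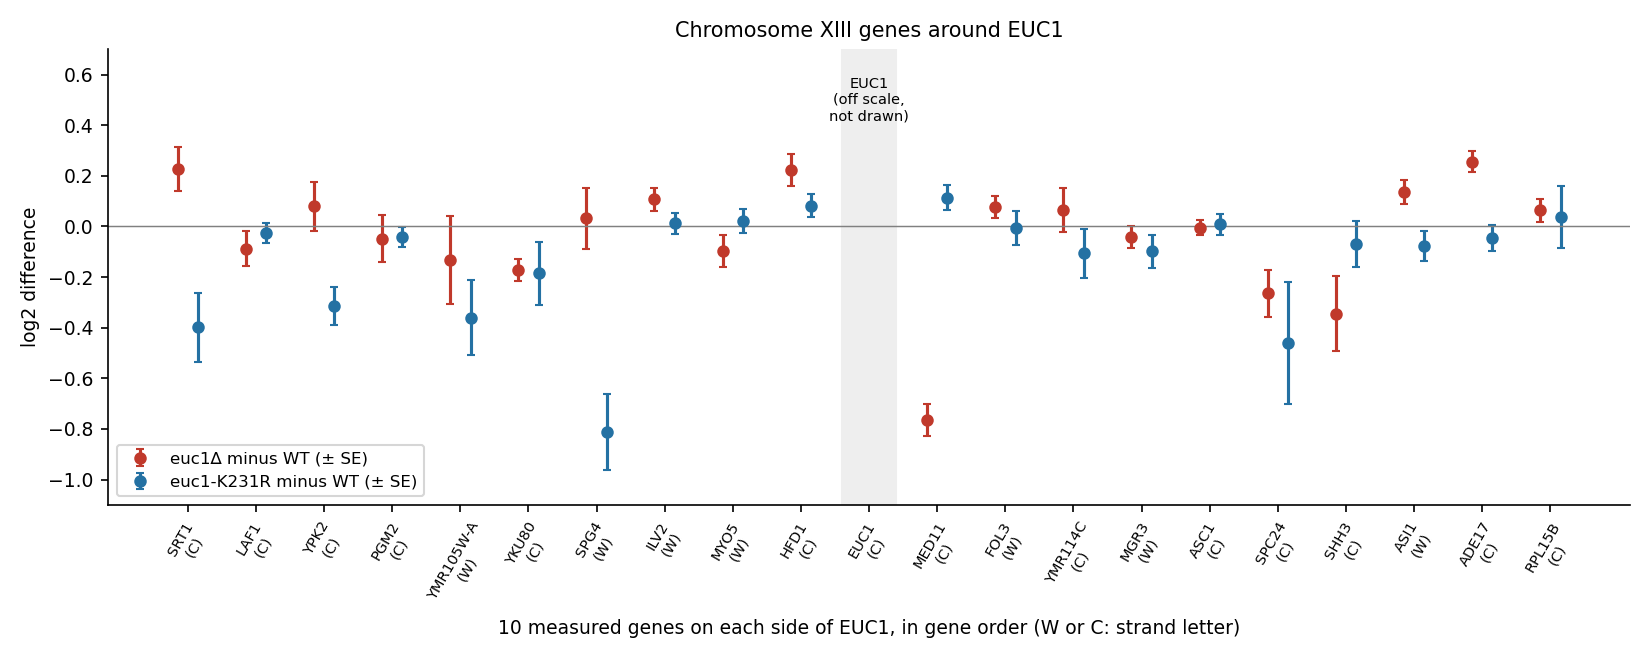
Log2 difference ± SE (vertical axis) in euc1∆ and in euc1-K231R for the 10 measured genes on each side of EUC1, in gene order (horizontal axis, with the strand letter W or C). EUC1 is off the scale and not drawn. MED11 stands lowest in euc1∆ at -0.76, and SPG4 stands lowest in euc1-K231R at -0.81 without passing the threshold.

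Since MED11 encodes a Mediator subunit, the other subunits were counted. Of 25 subunit genes 24 were measured, SRB4 not being tested. In euc1∆ 1 was lower and called, MED11 itself, 0 were higher, and 4 had an unadjusted p under 0.05, where 0.125% of all genes were called and 12.4% had such a p. The median over the 24 genes was 0.00, as over all genes, and the other subunits ran from -0.24 for NUT2 (adjusted p = 0.538) to 0.13 for MED7 (adjusted p = 0.283), both genes of the middle module. Genes of the head module, in which the Med11 protein sits, had differences of 0.01 for SRB6, which encodes its partner Med22, -0.03 for MED6, 0.08 for MED8, 0.06 for SRB5 and 0.04 for SRB2. None of these passed the test, and these head genes were picked for their module after the values were known.

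In euc1-K231R 0 Mediator genes were called by limma, 2 had an unadjusted p under 0.05 (19.4% of all genes), and the median was 0.03. The range was from -0.42 for NUT2 (adjusted p = 0.146) to 0.14 for SIN4 (adjusted p = 0.253), a tail module gene. The effects of the mutants differed past the threshold for 1 of the 24, MED11, which was also the only one with an unadjusted p under 0.05 in that test.

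**Figure D5:**
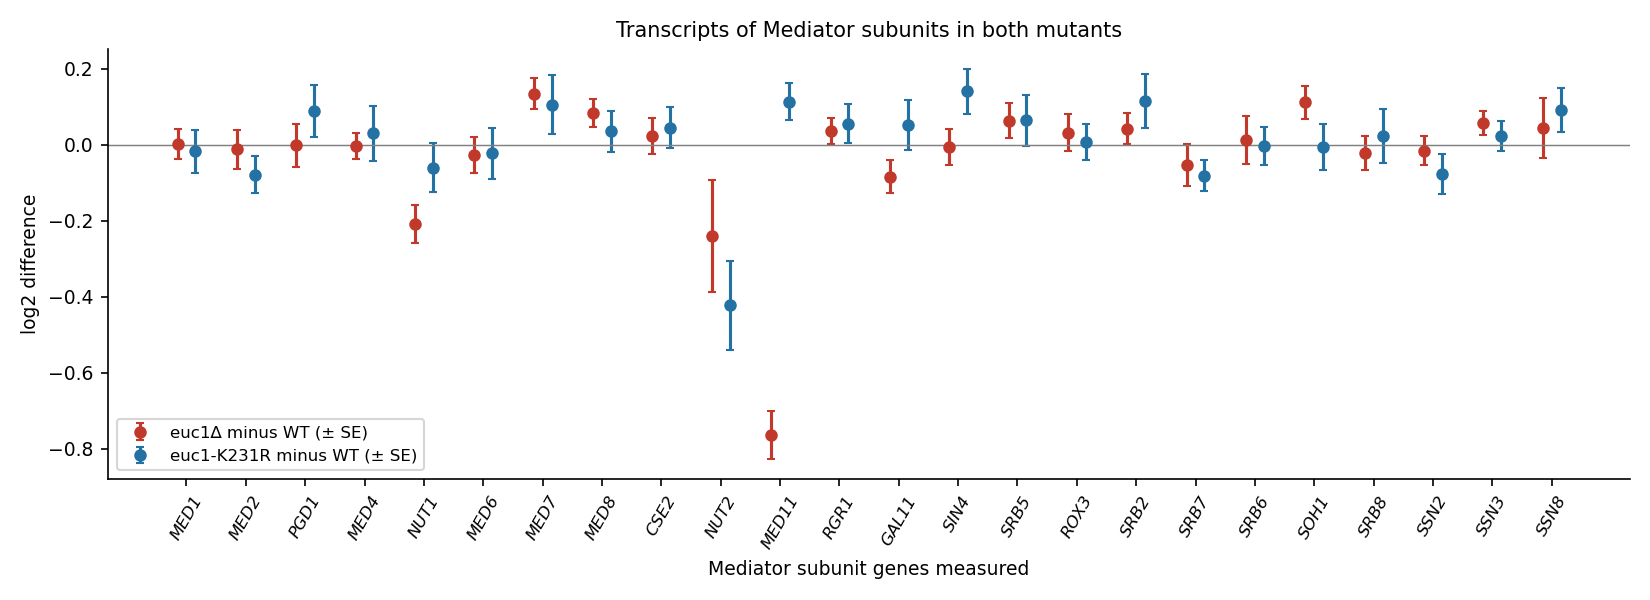
Log2 difference ± SE (vertical axis) in euc1∆ and in euc1-K231R for the 24 measured genes of Mediator subunits (horizontal axis). MED11 in euc1∆, at -0.76, is the only one called, and the other subunits lie between -0.24 and 0.13 in euc1∆ and between -0.42 and 0.14 in euc1-K231R.

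Genes that act with the other members, or for HFD1 genes of the same enzyme family, were counted in the same way. Of these, limma called 0 in either mutant. The counts at an unadjusted p under 0.05 that follow stand against 12.4% of all genes in euc1∆ and 19.4% in euc1-K231R, and the medians against 0.00 in both. Of 15 folate genes, 2 had an unadjusted p under 0.05 in each mutant, and the medians were 0.05 in euc1∆ and 0.00 in euc1-K231R. The values farthest from 0 in euc1∆ were those of MTD1, a cytosolic methylenetetrahydrofolate dehydrogenase, at 0.29 (adjusted p = 0.158), and SHM2, the cytosolic serine hydroxymethyltransferase, at 0.17 (adjusted p = 0.223). In euc1-K231R they were CDC21, thymidylate synthase, at 0.15 (adjusted p = 0.172), and DFR1, dihydrofolate reductase, at 0.12 (adjusted p = 0.399). For MTD1 the effects of the mutants differed by 0.34 (limma, adjusted p = 0.0328), so that 1 of the 15 was called in that test, which called 1.25% of all genes, and FOL3 was not.

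Of 22 genes of class I myosins and actin patches, 2 had an unadjusted p under 0.05 in each mutant, with medians of 0.02 in euc1∆ and 0.04 in euc1-K231R. The values farthest from 0 were 0.14 for ARC18 and 0.12 for ARP3, both of the Arp2/3 complex, in euc1∆, and 0.15 for VRP1, the yeast verprolin, and 0.12 for SLA2, an adaptor of endocytosis, in euc1-K231R. MYO3, the paralog of MYO5, had a difference of 0.02 in both mutants. Neither class I myosin gene thus passed the test in either mutant.

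Of 9 aldehyde dehydrogenase genes, 1 had an unadjusted p under 0.05 in each mutant, with medians of 0.03 in euc1∆ and -0.01 in euc1-K231R. HFD1 had the value farthest from 0 in euc1∆, followed by PUT2, of proline breakdown, at -0.06. In euc1-K231R these were ALD6, of acetate synthesis in the cytosol, at 0.15, and ALD5, of mitochondria, at -0.11. Of 13 genes for the SUMO machinery, Slx5/Slx8 and Cdc48 with its cofactors, 1 had an unadjusted p under 0.05 in euc1∆ and 2 in euc1-K231R, with medians of -0.01 and 0.06. ULP1, a SUMO protease, had -0.15 and SLX8 0.14 in euc1∆, and NPL4 and UBX4, cofactors of Cdc48, had 0.12 each in euc1-K231R. SMT3, the gene of SUMO itself, had 0.03 in euc1∆ and -0.00 in euc1-K231R.

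The pattern of each gene over the 12 arrays was described by its level minus the mean of the wild-type arrays of its experiment, and compared by Pearson correlation. The points share wild-type arrays, and the 3 euc1∆ arrays lie far from the rest for EUC1, so the correlations are descriptions of that separation. Of all genes, the most like EUC1 were FCY22 (r = 0.97), a putative purine-cytosine permease, MED11 (r = 0.93) and OSI1 (r = 0.92). The difference of FCY22 was -0.58 in euc1∆ (limma, adjusted p = 0.031) and -0.07 in euc1-K231R, and that of OSI1 was -0.52 (adjusted p = 0.0988) and -0.15. In euc1-K231R, where EUC1 fell by 1.02, none of the 3 passed the test. The most like MED11 were MSH5 (r = 0.96), of meiotic crossing over, FAA3 (r = 0.95), a fatty acyl-CoA synthetase, and RPB3 (r = 0.95), a subunit of RNA polymerase II. MSH5 fell by 0.46 in euc1∆ (limma, adjusted p = 0.0471) and had 0.07 in euc1-K231R, while FAA3 had -0.25 and 0.06 and RPB3 -0.12 and 0.03. HFD1 ran opposite to EUC1 (r = -0.82) and to MED11 (r = -0.74), FOL3 less so (r = -0.45 and -0.48), and MYO5 had r = 0.57 and 0.62. By rank of likeness among all genes MYO5 was number 425 for EUC1 and 533 for MED11, so many genes elsewhere were more like each.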

How the data were processed

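RNA was isolated from mid-log cultures, 300 ng per sample were labelled with a 3' in vitro transcription kit and hybridised to 12 arrays, described as biological triplicates. The authors deposited log2 values from RMA, a method of background correction, quantile normalisation and summary over probes. RMA and limma are named, without versions, in the submitters' processing notes. The authors' deposited tables of each comparison hold log2 fold changes and adjusted p-values, of which only the systematic gene names were used. Of 10928 probe sets, 4999 for S. pombe, 213 controls, 132 that match several transcripts and 3 not listed in those tables were left out of the tests. Symbols and gene order came from RefSeq (assembly R64; 5564 of 5581 genes found). The sources used here name no genome build for the arrays, so no coordinates are printed.

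Each mutant was compared with wild type with limma 3.58.1 in R 4.3.3 (lmFit, eBayes) over the 6 arrays of its experiment. The fit was run on simulated data with known changes and independent noise. That run does not give the share of real changes that the fit would call. P-values measure the spread between arrays of 1 strain each. Beside the 5 genes and URA3, the rule named called genes of the neighbourhood and each list, otherwise the 2 with the largest change, and the 3 genes most like EUC1 and MED11. The members and lists were chosen with earlier results of these data known. The alternatives changed the prior, scaling, low-level filter, probe sets, block, arrays fitted and replicates. A planned count of motif letters in promoters was not run. With 3 arrays per group, their number limits the precision.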

Additional observations from a re-analysis of the deposited data

Results flagged for a closer look

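The effects of the mutants on EUC1 differed by -4.34 on the log2 scale (euc1∆ effect minus euc1-K231R effect). The gene is deleted in euc1∆ and kept in euc1-K231R, so the design fixes that the effects differ. EUC1 was above background on 0 of 3 euc1∆ arrays and on 3 of 3 euc1-K231R arrays, and the value is limited by background on the euc1∆ side.

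The effects on MED11 differed by -0.88 (limma, adjusted p = 0.000184), and the test of the difference itself was passed. MED11 lay lower in 3 of 3 euc1∆ arrays than in any wild-type array of the same experiment, as did 8.24% of all genes. In euc1-K231R it lay higher in 3 of 3 arrays, as did 14.0% of all genes, by a gap of 0.03, and its difference of 0.11 did not pass the test (limma, adjusted p = 0.259). The difference between the effects therefore does not show an opposite change in euc1-K231R. Allele, strain and experiment change together in this test and cannot be told apart.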

How the results depend on the processing

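Of 420 alternative values of 30 results, 356 kept their direction and their side of the threshold or, for counts, stayed close to the main count. Among the 356 are counts of 0 that stayed 0 and EUC1 in euc1∆, whose fall the deletion fixes. MED11 in euc1∆ was called in 6 of its 13 alternative fits. Quantile normalisation and a filter at the S. pombe 95th percentile changed no call of the 5 genes, nor did median centring.

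The count of genes called in euc1∆, 7, became 20 with a trended, robust prior, 2 with all probe sets, 12 with 12 arrays in the fit, and 2 to 21 without 1 array, the highest without euc1∆ replicate 3 and at most 3 without any other. The 50 in euc1-K231R became 110 with median centring (21 higher, 89 lower), 13 with all probe sets, 124 with 12 arrays, and 11 to 103 without 1 array, with 103 without euc1-K231R replicate 3, 11 without replicate 2, and 17 and 24 without wild-type replicates 1 and 2. The 70 of the difference became 20 with all probe sets and 21 to 75 without 1 array. MED11 in euc1∆ kept -0.76 with all probe sets at an adjusted p of 0.0667, and ran from -0.83 to -0.72 without 1 array. Among the 20 genes around EUC1 the count in euc1∆ was 2 with the trended prior (MED11 and ADE17), 0 with all probe sets and 0 to 1 without 1 array. In euc1-K231R it was 1 (SPG4) with the trended prior, with median centring and with 12 arrays, and 0 to 1 without 1 array. Mediator genes called in euc1∆ were 0 with all probe sets and 0 to 1 without 1 array. Folate genes called in euc1∆ were 2 with the trended prior (SHM2 and MTD1), 1 with 12 arrays (MTD1) and 0 to 1 without 1 array (1 without euc1∆ replicate 3). Without 1 array FOL3 in euc1-K231R ran from -0.0633 to 0.0396 and MYO5 from -0.0031 to 0.0611, both changing sign. FOL3 was above 0 at 0.0066 without wild-type replicate 1, at 0.0396 without wild-type replicate 2, at 0.0013 without euc1-K231R replicate 2 and at 0.0323 without replicate 3. The fits with all probe sets adjust over more tests and also take the prior from all of these probe sets. Those without 1 array hold fewer arrays. The cause of the shifts was not tested.

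Arrays with the same replicate number had r of -0.20, 0.11 and -0.21 in euc1∆ and -0.22, -0.09 and 0.30 in euc1-K231R. Arrays with different numbers had r of -0.21 to 0.31 and -0.36 to 0.41. The same number thus did not go with a higher r, but so few arrays cannot exclude a pairing. With the number as a replicate block, 1 gene was called in euc1∆, 27 in euc1-K231R and 21 for the difference. MED11 in euc1∆ then had -0.76 at an adjusted p of 0.0814, with 0 of the 20 neighbours and 0 Mediator genes called in euc1∆ and 1 neighbour, SPG4, in euc1-K231R. The block changed no other call of the 5 genes.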
